A study of Mus musculus with 9 samples.

Results

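The oligodendrocyte lineage transcription factors Olig1, Olig2, Sox10, Sox8 and Nkx2-2 were followed across tumors and precursor cell lesions of mouse brain. Each is read by the probe set that names only that gene in the array annotation, and the 5 genes are 5 of the 22180 measured. The arrays came from 3 groups of 3. P3 GBM tumors (glioblastoma) of the genotype hPDGF-A;hPDGFRα;p53lox came from mice fed doxycycline (DOX) at 600 mg/kg, here called P3 high DOX, or at 25 mg/kg, called P3 low DOX. OPC lesions, labelled as oligodendrocyte precursor cells of the genotype hPDGFRα;p53, came from mice fed 600 mg/kg DOX. For the high diet the study gives a slightly different DOX content from the labels, which are followed here.

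In this model a lentivirus that carries Cre and a DOX-inducible human PDGF-A was injected into the striatum of adult mice. In P3 animals Cre removes the floxed Trp53 and also a stop cassette in front of a human PDGFRα transgene driven by the CAG promoter, so the cell types that express it are those the virus reached. The study describes the OPC lesions as coming from injected mice with floxed p53 but without the receptor transgene, which differs from the genotype in their labels. It also describes the lesion cells as expressing wild type p53 and P3 cultures as p53 null. By this description all groups share the virus, the ligand it encodes and a DOX diet. The P3 high DOX tumors and the OPC lesions share the label's DOX content, whereas the P3 low DOX tumors differ from the OPC lesions in both genotype and diet. The arrays are described as biological replicates, and whether 3 different mice stand behind each group is not said, so the p-values speak only for the spread among these arrays, which may be technical.

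Olig1 and Olig2 are basic helix-loop-helix factors. Olig2 directs neural progenitors into the oligodendrocyte lineage and is kept at all later stages, and it is also found in most diffuse gliomas. Olig1 acts later, in maturation and repair of myelin. Sox10 and Sox8 are SoxE factors with a high mobility group DNA-binding domain. Sox10 switches on myelin genes in differentiating cells, and Sox8 has a partly overlapping role. Nkx2-2, a homeodomain repressor, controls when precursors begin to differentiate.

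Promoter sequence was at hand from RefSeq (GRCm38.p6) for 3 of the 5 genes, and it is shown because factors of these families are known to act on each other's genes. Each line gives the 250 bases before the start of transcription, written 5′ to 3′ on the gene's strand. Capitals mark 3 short motifs, each searched on both strands. The SOX core was searched as ACAAT. The E-box, which basic helix-loop-helix factors bind, was searched as CANNTG. The NK2 core was searched as CACTT. The Olig2 window lies at chr16:91225300-91225549 (plus strand), that of Sox8 at chr17:25570687-25570936 (minus strand) and that of Nkx2-2 at chr2:147186403-147186652 (minus strand).
Olig2: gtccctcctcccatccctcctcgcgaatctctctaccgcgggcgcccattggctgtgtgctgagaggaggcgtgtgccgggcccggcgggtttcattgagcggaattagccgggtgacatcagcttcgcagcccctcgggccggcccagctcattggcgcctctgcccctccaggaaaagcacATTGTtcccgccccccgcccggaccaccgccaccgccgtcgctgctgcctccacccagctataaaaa
Sox8: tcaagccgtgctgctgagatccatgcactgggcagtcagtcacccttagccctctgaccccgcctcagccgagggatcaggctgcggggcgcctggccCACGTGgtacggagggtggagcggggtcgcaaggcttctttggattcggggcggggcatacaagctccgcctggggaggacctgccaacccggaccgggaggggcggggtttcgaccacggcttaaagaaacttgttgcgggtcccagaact
Nkx2-2: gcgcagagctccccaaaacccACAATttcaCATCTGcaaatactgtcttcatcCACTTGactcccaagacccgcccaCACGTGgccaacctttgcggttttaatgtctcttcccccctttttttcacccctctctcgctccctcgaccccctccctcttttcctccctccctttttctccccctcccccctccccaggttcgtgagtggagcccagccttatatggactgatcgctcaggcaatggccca
The Olig2 window held 1 SOX core, on the other strand and so read as ATTGT, and 0 E-boxes. The Sox8 window held 1 E-box, CACGTG. The Nkx2-2 window held 1 SOX core, 3 E-boxes and 1 NK2 core, and the NK2 core lies inside the E-box CACTTG. Of 32851 mouse promoters of the same length, 27.7% held the SOX core, 66.2% an E-box and 40.7% the NK2 core, so the matches are of motifs that are common in promoters. They describe letters and not bound sites.

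Values are log2 signals after robust multichip averaging (RMA), where 1 unit is a doubling. Array medians lay between 4.55 and 4.83. Since probe sets differ in how strongly they bind, the level of a gene is compared here only between arrays and never with that of another gene. The labelled cell type was checked on its markers. Pdgfra, the mouse receptor that defines OPCs, lay between 11.29 and 12.96 in P3 high DOX tumors, between 9.90 and 12.60 in P3 low DOX tumors and between 11.56 and 12.93 in OPC lesions. P3 tumors also express the human PDGFRα transgene. Whether the Pdgfra probe set reads it too was not tested, which also limits the lists below that hold Pdgfra. The tissue was not pure in any group. The mean over 15 neuron markers was 10.39 in P3 high DOX replicate 2 and 10.25 in OPC lesion replicate 1, against 5.62 to 8.84 in the other 7 arrays. The synaptic gene Snap25 reached 12.81 in that P3 high DOX array and 12.94 in that OPC lesion. P3 low DOX replicate 3 stood apart by fibroblast and meningeal markers, with a mean of 9.31 over 10 genes, against 5.55 to 6.60 in the other 8 arrays, and Col1a1 at 12.40. P3 high DOX replicate 2 also had choroid plexus transcripts, with a mean of 6.99 over 10 choroid plexus and ependymal genes, against 4.59 to 4.79 in the other 8 arrays, and Ttr, the transthyretin gene of that tissue, at 12.46. In bulk tissue fewer cells of a type and less RNA per cell cannot be told apart.

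Olig1 and Olig2 ran almost in parallel. Olig1 had 12.18, 10.77 and 11.996 in P3 high DOX tumors (replicates 1 to 3), against 11.35, 11.62 and 10.67 in P3 low DOX tumors and 11.25, 11.60 and 12.34 in OPC lesions. P3 high DOX replicates 1 and 3 lay above the P3 low DOX range and replicate 2 within it, and the groups overlapped. Olig2 had 11.83, 10.67 and 11.79 in P3 high DOX tumors, 11.23, 11.39 and 10.28 in P3 low DOX tumors, and 10.95, 11.78 and 12.01 in OPC lesions. For both genes the lowest array was P3 low DOX replicate 3, the one rich in fibroblast transcripts, and the highest was OPC lesion replicate 3. The group means of Olig2 were 11.43 ± 0.66 in P3 high DOX tumors, 10.97 ± 0.60 in P3 low DOX tumors and 11.58 ± 0.56 in OPC lesions (SD, n = 3 each). Those of Olig1 were 11.65 ± 0.77 in P3 high DOX tumors, 11.22 ± 0.49 in P3 low DOX tumors and 11.73 ± 0.56 in OPC lesions (SD, n = 3 each).

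Sox10 was even in P3 low DOX tumors and uneven in the other groups. It had 10.12, 8.14 and 10.17 in P3 high DOX tumors, 9.92, 9.95 and 9.51 in P3 low DOX tumors, and 8.51, 10.005 and 10.07 in OPC lesions. P3 high DOX replicate 2 and OPC lesion replicate 1, the arrays with the most neuronal transcripts, each fell far below the rest of their group. Sox8 had 9.52, 8.58 and 9.76 in P3 high DOX tumors, 9.18, 9.84 and 9.31 in P3 low DOX tumors, and 8.02, 9.55 and 9.22 in OPC lesions. Its lowest values stood in those same arrays, and its highest was P3 low DOX replicate 2.

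Nkx2-2 varied most of the 5 genes. It had 8.10, 6.42 and 8.39 in P3 high DOX tumors, 8.20, 9.22 and 8.30 in P3 low DOX tumors, and 6.87, 9.49 and 8.01 in OPC lesions. Its range over the 9 arrays was 3.08 log2 units, against 1.67 to 2.03 for the other 4 genes. The OPC lesions alone spanned 2.63 units, and every array of the other groups but P3 high DOX replicate 2 lay within that range. Over the 9 arrays the SD was 0.98 for Nkx2-2, 0.75 for Sox10 and 0.58 to 0.59 for Olig1, Olig2 and Sox8, where the median gene in the upper part of the expression range had 0.38. Differences between the group means took up 3.86% of the variance of Sox10 and 15.3% to 21.8% of that of the other 4 genes, against 26.5% for that median gene.

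**Figure D1:**
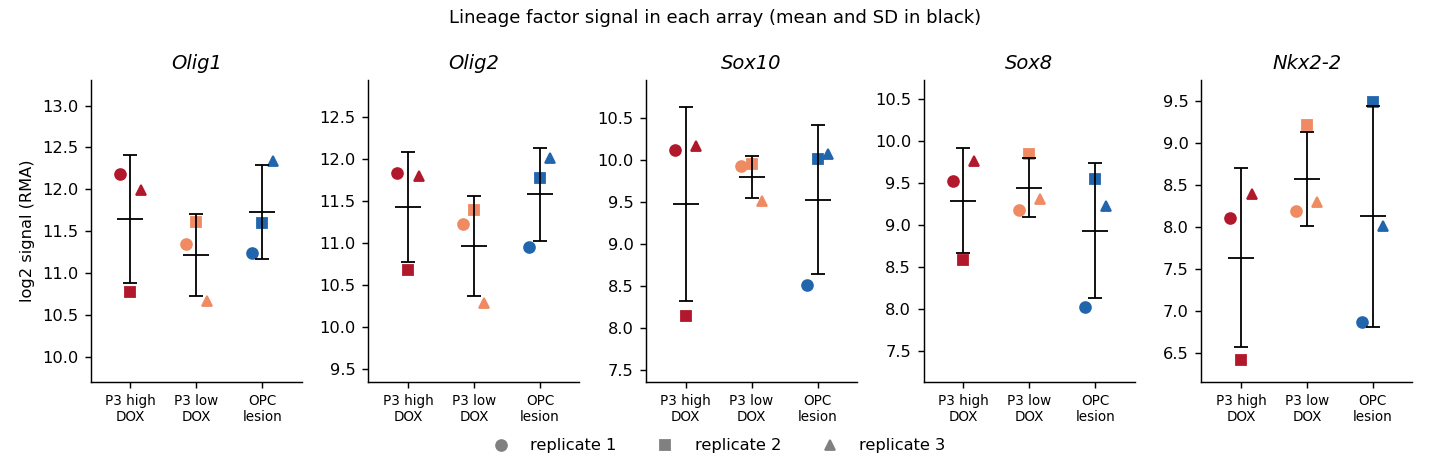
Each point is the log2 RMA signal of a gene in an array, with P3 high DOX tumors, P3 low DOX tumors and OPC lesions from left to right. The black bar and whiskers give the mean and SD of 3 arrays, and every panel spans the same number of log2 units. P3 high DOX replicate 2 and OPC lesion replicate 1 lie at the bottom of their groups for all 5 genes.

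The comparison of P3 high DOX with P3 low DOX tumors asks whether the DOX dose goes with the level of the lineage factors. The study reports more PDGF-A transcript in the high-dose tumors, but no significant rise in phosphorylated PDGFRα and a similar Ki67 index. It also reports shorter survival on the high diet, so dose and time to tumor cannot be told apart here. Olig1 and Olig2 averaged higher in P3 high DOX tumors and the other 3 genes lower, but no difference passed the test. The log2 difference was 0.43 for Olig1 (95% interval -0.60 to 1.47), 0.47 for Olig2 (-0.55 to 1.49), -0.32 for Sox10 (-1.74 to 1.10), -0.15 for Sox8 (-1.20 to 0.89) and -0.94 for Nkx2-2 (-2.65 to 0.78), high minus low. By limma over all genes, the adjusted p was 0.69 for Nkx2-2 and 0.74 to 0.93 for the others. The exact two-sided permutation p was 0.3 for Nkx2-2 and 0.5 to 1 for the others, and 3 arrays against 3 cannot go below 0.1. Thus 0 of the 5 genes were called, where 0% of the 22180 genes were called, and the smallest adjusted p of any gene was 0.186. At an unadjusted p under 0.05 there were 2248 genes (10.1%) and none of the 5. The test named in the study's methods also called 0 genes after adjustment and 1656 before it. The intervals leave room for a P3 high DOX level of Olig2 of 0.68 to 2.80 times the P3 low DOX level, and of Nkx2-2 of 0.16 to 1.71 times.

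This comparison leaned on P3 high DOX replicate 2. When that array and OPC lesion replicate 1 were both left out, the P3 high DOX values of Olig1, Olig2 and Sox10 all lay above those of the P3 low DOX tumors. Of all genes, 25.2% then did not overlap between the doses, in either direction. The differences were then 0.87 for Olig1, 0.85 for Olig2 and 0.35 for Sox10, and those of Sox8 and Nkx2-2 were 0.20 and -0.33. With 2 arrays against 3 none of these passed the test either, while 2 of the 5 genes and 1888 of all genes had an unadjusted p under 0.05. The part that neuronal and choroid plexus tissue have in the difference was not tested.

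The P3 high DOX tumors and the OPC lesions had the same labelled diet. As the study describes them they differ both in the receptor transgene and in p53, and these cannot be told apart. The group means of the 5 genes lay at most 0.49 log2 units apart. The log2 difference, P3 high DOX minus OPC lesion, was -0.08 for Olig1 (95% interval -1.11 to 0.95), -0.14 for Olig2 (-1.16 to 0.87), -0.05 for Sox10 (-1.47 to 1.37), 0.36 for Sox8 (-0.68 to 1.40) and -0.49 for Nkx2-2 (-2.20 to 1.22). The adjusted p was 1 for each by limma, and 0 of 5 genes were called, against 0% of all genes. Here 360 genes had an unadjusted p under 0.05, none of them a lineage factor, and the methods' test gave 558. The intervals are wide, and for Sox10 a level between 0.36 and 2.59 times that of the OPC lesions lies within it.

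P3 low DOX tumors differ from OPC lesions in diet as well as in genotype, and these cannot be told apart here. Olig1 and Olig2 averaged lower and Sox10, Sox8 and Nkx2-2 higher in P3 low DOX tumors. The log2 difference was -0.51 for Olig1 (95% interval -1.55 to 0.52), -0.61 for Olig2 (-1.63 to 0.41), 0.27 for Sox10 (-1.15 to 1.69), 0.51 for Sox8 (-0.53 to 1.56) and 0.45 for Nkx2-2 (-1.27 to 2.16). The adjusted p lay between 0.65 and 0.90 by limma, and again 0 of 5 genes and 0% of all genes were called, with 2178 genes at an unadjusted p under 0.05 and 1402 by the methods' test. With the P3 doses combined, 6 arrays against 3 OPC lesions, the differences were -0.30 for Olig1, -0.38 for Olig2, 0.11 for Sox10, 0.44 for Sox8 and -0.02 for Nkx2-2. The exact permutation p was 0.35 to 0.98, where this design could reach 0.0119, and 0% of genes were called by limma, with 855 unadjusted and 760 by the methods' test. Both P3 doses are set against the same 3 OPC lesions, so these comparisons are not independent of each other.

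**Figure D2:**
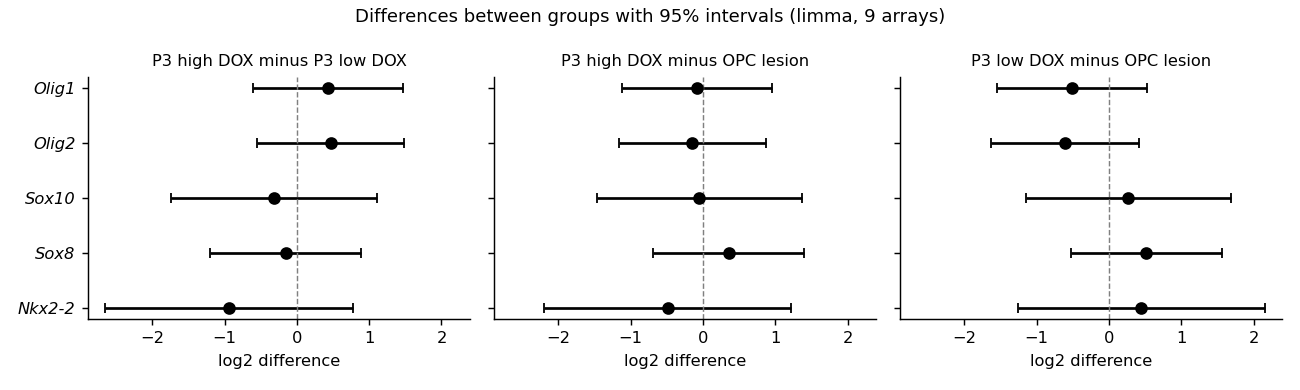
Points give the log2 difference of each lineage factor between the named groups, and bars its 95% interval from the fit over 9 arrays. Every interval crosses the dashed line at 0, and that of Nkx2-2 is the widest in each panel.

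Although no gene passed the test on its own, several of the genes varied together. Over the 9 arrays Olig1 and Olig2 had r = 0.96 (Spearman rho 0.98), and still r = 0.95 over the 7 arrays left after the neuron-rich ones were removed. Sox10 and Sox8 had r = 0.86 (rho 0.68), Sox8 and Nkx2-2 r = 0.84 (rho 0.85) and Sox10 and Nkx2-2 r = 0.83 (rho 0.47). Olig1 and Nkx2-2 were the least alike, with r = 0.37 (rho 0.17). The arrays of a group share diet and genotype and all 9 share cell mixture as a source of variation, so these values are descriptions.

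The likeness depended on which arrays were counted. Without P3 high DOX replicate 2 and OPC lesion replicate 1, Sox10 followed the Olig genes, with r = 0.92 to Olig1 and 0.96 to Olig2. Its r to Sox8 was then 0.37 and to Nkx2-2 0.01, so the likeness of Sox10 to those genes rested on the arrays left out. Sox8 and Nkx2-2 kept r = 0.58 over the 7 arrays. Olig1 and Olig2 lie next to each other on chromosome 16 among the genes measured. On the far side of Olig1, Ifnar2, a subunit of the interferon receptor, had r = 0.06 with it. On the far side of Olig2, 4932438H23Rik had r = -0.88 with Olig2 and -0.86 with Olig1 over a range of 4.41 to 5.14.

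The lineage factors went with the other markers of the mixture in different ways. The mean of the neuron list had r = -0.90 with Nkx2-2, -0.83 with Sox8 and -0.74 with Sox10, but -0.11 with Olig1 and -0.16 with Olig2. Over the 7 arrays the r of Nkx2-2 was -0.68, and those of Sox10 and Olig1 were 0.40 and 0.67. The mean of 14 genes of newly formed oligodendrocytes had r = 0.88 with Nkx2-2, and 0.81 over the 7 arrays, whereas it had r = -0.05 with Olig1 and 0.07 with Olig2. The mean of 15 OPC genes had r between 0.58 and 0.75 with each of the 5, and that of 13 cell cycle genes between 0.73 and 0.85. Over the 7 arrays the r of the OPC list was 0.24 with Nkx2-2 and 0.61 to 0.82 with the other 4, and that of the cell cycle list was 0.19 with Nkx2-2 and 0.47 to 0.67 with the others. The choroid plexus list, high in P3 high DOX replicate 2 alone, had r = -0.69 with Sox10 and -0.61 with Nkx2-2 over the 9 arrays. Over the 7 arrays the fibroblast list had r = -0.93 with Olig2, -0.92 with Sox10 and -0.83 with Olig1, in which P3 low DOX replicate 3 is the extreme point. None of these relations was tested.

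**Figure D3:**
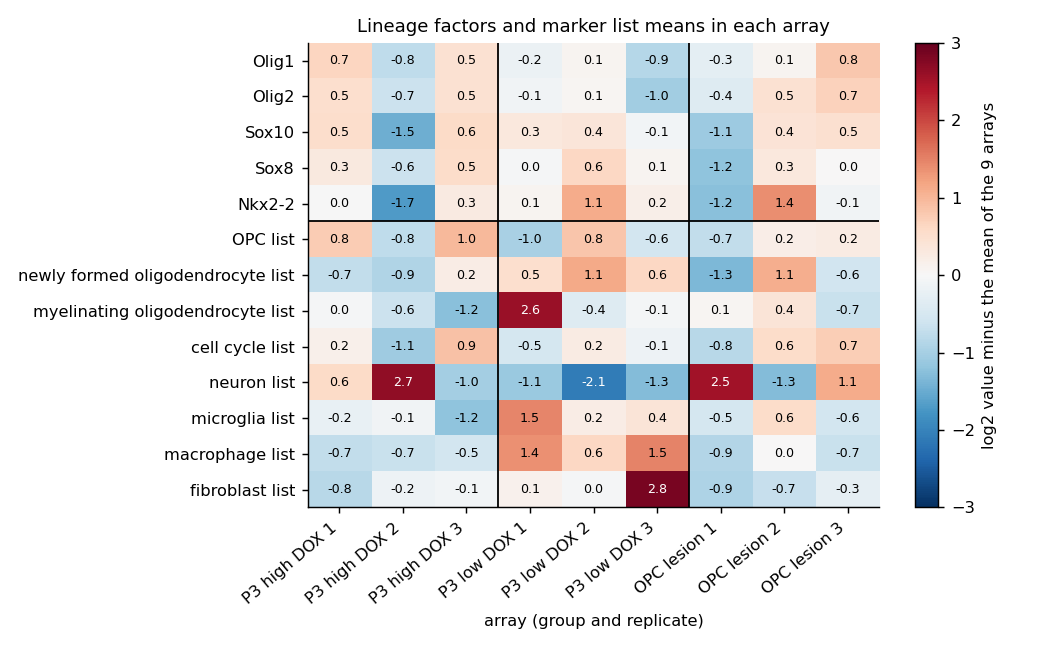
Each cell gives the log2 value of a lineage factor, or the mean of a marker list, in an array minus its mean over the 9 arrays, with P3 high DOX on the left, P3 low DOX in the middle and OPC lesions on the right. The neuron list is high in P3 high DOX replicate 2 and OPC lesion replicate 1, where Sox10, Sox8 and Nkx2-2 are low, and the fibroblast list is high in P3 low DOX replicate 3, where Olig1 and Olig2 are low.

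The balance between the factors was then compared within each array. The difference of 2 log2 values in the same array depends on both probe sets and has no meaning as a level, but its change from group to group can be compared. The difference Olig2 minus Nkx2-2 was 3.73, 4.26 and 3.40 in P3 high DOX tumors, against 3.03, 2.17 and 1.98 in P3 low DOX tumors. Every P3 high DOX array exceeded every P3 low DOX array, by 1.40 log2 units on average. The OPC lesions, with 4.08, 2.28 and 3.995, spread over both groups. For Olig1 minus Nkx2-2 the P3 high DOX arrays had 4.08, 4.35 and 3.61 and the P3 low DOX arrays 3.16, 2.40 and 2.38, and the mean difference was 1.37.

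The Olig genes also stood higher relative to Sox10 in P3 high DOX tumors. Olig2 minus Sox10 was 1.71, 2.53 and 1.62 in P3 high DOX tumors, against 1.31, 1.44 and 0.77 in P3 low DOX tumors, a mean difference of 0.78. Olig1 minus Sox10 was 2.06, 2.63 and 1.83 in P3 high DOX tumors, against 1.43, 1.66 and 1.17 in P3 low DOX tumors, a mean difference of 0.75. Neither pair overlapped between the doses, and without the 2 neuron-rich arrays the mean differences were 0.50 and 0.52. Relative to Sox8, Olig1 did not overlap between the doses (mean difference 0.59), whereas Olig2 did, with 2.31, 2.09 and 2.03 in P3 high DOX tumors and 2.05, 1.55 and 0.97 in P3 low DOX tumors. Olig1 minus Olig2 averaged 0.22 ± 0.13 in P3 high DOX tumors, 0.25 ± 0.13 in P3 low DOX tumors and 0.15 ± 0.28 in OPC lesions (SD, n = 3 each), and Sox10 minus Sox8 overlapped in all comparisons.

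In all, 6 of the 10 pairs did not overlap between P3 high DOX and P3 low DOX tumors, the sixth being Sox8 minus Nkx2-2 with a mean difference of 0.78. Among all pairs of genes in the upper part of the expression range 22.9% did not overlap. The 10 pairs share 5 genes and are not independent, and each of the 6 had an exact two-sided permutation p of 0.1, the smallest that 3 arrays against 3 can give, so no pair could pass a threshold of 0.05. Between P3 high DOX tumors and OPC lesions 1 of 10 pairs did not overlap, against 4.88% of all pairs. Between P3 low DOX tumors and OPC lesions 2 of 10 did not overlap, Olig2 minus Sox10 and Olig2 minus Sox8, with mean differences of -0.88 and -1.12, against 17.2% of all pairs. For the combined P3 doses it was 0 of 10, against 1.26%. The comparison within arrays was chosen after the values had been seen.

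Some marker lists of cells outside the lineage also differed between the groups. P3 low DOX tumors had the higher macrophage list, with a mean over 10 genes of 6.25 to 7.10, against 4.90 to 5.09 in P3 high DOX tumors and 4.74 to 5.64 in OPC lesions. The microglia list, of 15 genes, was 6.19 to 7.29 in P3 high DOX tumors, against 7.60 to 8.85 in P3 low DOX tumors. The fibroblast list was 5.62 to 6.39 in P3 high DOX tumors, against 6.44 to 9.31 in P3 low DOX tumors. The neuron list was 6.71 to 10.39 in P3 high DOX tumors, against 5.62 to 6.62 in P3 low DOX tumors. None of these lists overlapped between the doses, and they are named because they stood apart. The astrocyte, endothelial, mural, choroid plexus, Schwann cell and T cell lists did overlap. Of single genes 16.0% did not overlap, but no such share was computed for means over a list. Within the lineage, the newly formed oligodendrocyte list did not overlap either. It had 7.92 to 9.06 in P3 high DOX and 9.33 to 9.96 in P3 low DOX tumors. Of the 15 neuron genes 15 averaged higher in P3 high DOX than in P3 low DOX tumors, with a median difference of 2.11, and of the 10 macrophage genes 8 averaged lower, with a median of -1.51, as did 13 of the 15 microglia genes (median -1.37) and 10 of the 10 fibroblast genes (median -1.17), where 49.96% of all genes averaged higher. The part of these cells in the balance between the factors was not tested.

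**Figure D4:**
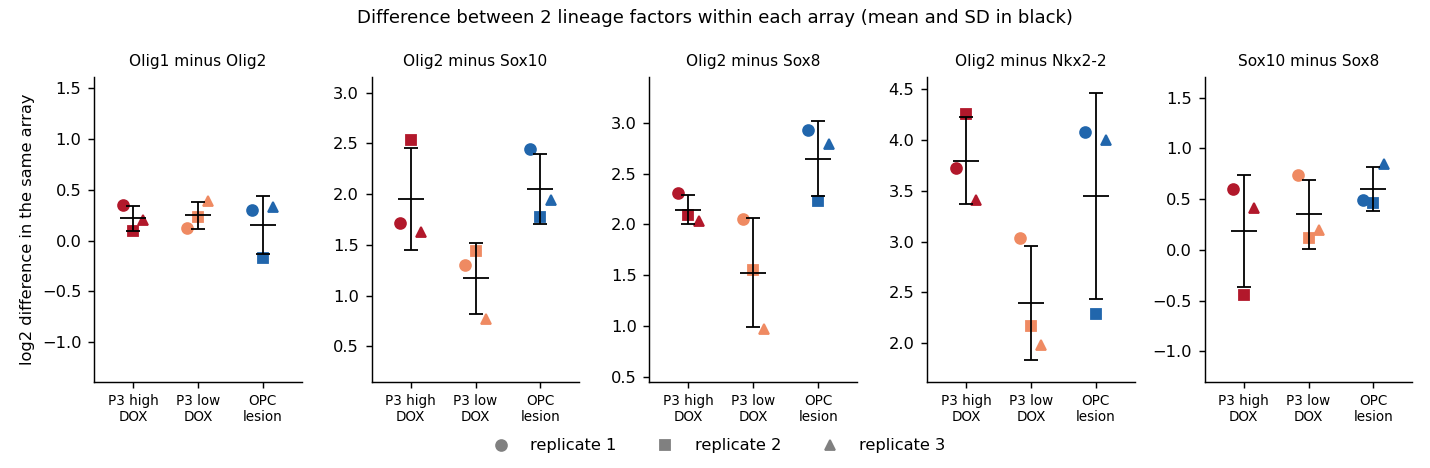
Points give the difference between the log2 values of 2 lineage factors in the same array, with P3 high DOX, P3 low DOX and OPC lesions from left to right, and black bars give the mean and SD of 3 arrays. Olig2 minus Sox10 and Olig2 minus Nkx2-2 lie higher in every P3 high DOX array than in any P3 low DOX array, whereas Olig1 minus Olig2 overlaps.

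Genes that work with the lineage factors were examined next, group by group, and none passed the test in any comparison. Among 20 cofactors and later regulators of the lineage, 12 averaged higher and 8 lower in P3 high DOX than in P3 low DOX tumors, with a median of 0.12. The furthest apart was Myrf, the factor that Sox10 induces and that turns on myelin genes. It had 8.12, 7.48 and 8.69 in P3 high DOX tumors, against 10.92, 10.17 and 10.19 in P3 low DOX tumors and 7.72, 9.997 and 7.07 in OPC lesions. The P3 doses did not overlap and the difference was -2.33, with an adjusted p of 0.41 by limma. Between the doses 16.0% of all genes did not overlap. St18, a zinc finger factor of the Myt1 family, had a difference of -1.69 (adjusted p = 0.43). Against OPC lesions the P3 low DOX tumors had differences of 2.17 for Myrf (adjusted p = 0.46) and 1.63 for St18 (0.49), and the P3 high DOX tumors had their furthest values in the deacetylase Hdac1 (-0.42) and the ETS factor Etv4 (0.33), both with an adjusted p of 1.

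Of 15 genes known to be controlled by the lineage factors, 4 averaged higher and 11 lower in P3 high DOX than in P3 low DOX tumors, with a median of -0.73, against -0.0002 over all genes. The myelin adhesion gene Mag had 7.77, 7.69 and 7.25 in P3 high DOX tumors, against 11.72, 8.76 and 9.23 in P3 low DOX tumors and 8.24, 10.55 and 6.96 in OPC lesions. The tight junction gene Cldn11 had 9.33, 9.22 and 10.39 in P3 high DOX tumors, against 12.74, 11.25 and 11.40 in P3 low DOX tumors and 9.69, 12.32 and 10.23 in OPC lesions. The P3 doses did not overlap for either gene, and the differences of -2.33 and -2.15 had adjusted p of 0.49 and 0.43. P3 low DOX replicate 1 was high for myelin genes as a whole, with a mean of 10.43 over 15 genes, against 6.61 to 8.25 in the other 8 arrays. Relative to OPC lesions the 15 targets had medians of -0.30 in P3 high DOX and 0.52 in P3 low DOX tumors. There Cldn11 (-1.10) and Mog (-1.09) lay furthest apart for P3 high DOX, and Mag (1.32) and Mbp (1.12) for P3 low DOX, with adjusted p of 0.51 to 1.

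Markers of the stages that the factors lead through were counted in the same way. Of 15 OPC genes 9 averaged higher in P3 high DOX than in P3 low DOX tumors, with a median of 0.79. Of 14 genes of newly formed oligodendrocytes 0 did, with a median of -1.21. Of 15 genes of myelinating oligodendrocytes 0 did, with a median of -1.16, where 49.96% of all genes averaged higher. The myelinating list had means of 10.43, 7.46 and 7.79 in P3 low DOX tumors, against 7.81, 7.21 and 6.61 in P3 high DOX tumors. These overlapped, and P3 low DOX replicate 1 stood far above the rest, so the myelinating count leans on that array. Gpr17 stands in both the OPC and the newly formed list. The targets share Pdgfra, Cspg4 and Gpr17 with the OPC list, Gpr17 and Sirt2 with the newly formed list and 8 genes with the myelinating list, and the newly formed list shares Tcf7l2 with the cofactors, so the counts are not independent. Against OPC lesions 15 of the 15 OPC genes averaged higher in P3 high DOX tumors, with a median of 0.32. In P3 low DOX tumors 6 of 15 did, with a median of -0.46. Of all genes 48.22% and 49.35% averaged higher. The OPC list means overlapped, with 8.66 to 10.41 in P3 high DOX tumors and 8.69 to 9.68 in OPC lesions. Of newly formed genes 5 of 14 averaged higher in P3 high DOX and 13 of 14 in P3 low DOX tumors than in OPC lesions. Of myelinating genes it was 2 of 15 and 15 of 15.

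The families of the 5 genes showed smaller differences. Of 17 other Sox genes 6 averaged higher in P3 high DOX than in P3 low DOX tumors, with a median of -0.07. Sox1, a factor of neural progenitors, had 5.68, 7.04 and 4.58 in P3 high DOX tumors, 5.17, 4.52 and 4.52 in P3 low DOX tumors, and 6.70, 5.47 and 5.61 in OPC lesions, and its highest values were in the neuron-rich arrays. Its difference was 1.03 between the doses and -1.19 for P3 low DOX minus OPC lesion (adjusted p = 0.59 and 0.55), and that of Sox4 between the doses was -0.75 (adjusted p = 0.74). Against OPC lesions Sox18, an endothelial factor, differed by 0.67 in P3 low DOX tumors, and Sox5 and Sox12 by 0.38 and 0.28 in P3 high DOX tumors. Of 9 other Nkx genes 4 averaged higher between the doses, with a median of -0.02. Nkx6-2, which oligodendrocytes use in maturation, was the exception, with 6.23, 5.83 and 5.75 in P3 high DOX tumors and 9.11, 6.84 and 6.42 in P3 low DOX tumors, and a difference of -1.52 (adjusted p = 0.54). Against OPC lesions it differed by -0.43 in P3 high DOX and 1.10 in P3 low DOX tumors. Nkx2-1 and Nkx2-6 differed by at most 0.31 in any comparison in which they lay among the furthest. Nkx2-1, Nkx2-3, Nkx2-4, Nkx2-6, Nkx2-9 and Nkx6-1 stayed at or below 5.11 in every array, where array medians lay between 4.55 and 4.83. Sox15, Sox30, Olig3 and Bhlhe23 stayed at or below 4.37. Differences between such low signals are hard to read.

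Of 14 helix-loop-helix partners and antagonists 6 averaged higher between the doses, with a median of -0.03. Id3, an inhibitor that takes E proteins away from factors such as the Olig proteins, had 7.90, 7.79 and 7.78 in P3 high DOX tumors, against 8.78, 9.06 and 9.11 in P3 low DOX tumors and 7.18, 8.32 and 7.25 in OPC lesions. The P3 low DOX arrays lay above all 6 others. Of all genes 16.0% did not overlap between the doses and 14.3% between P3 low DOX tumors and OPC lesions. The share that stood apart from both was not counted. By limma the difference of Id3 was -1.16 for P3 high DOX minus P3 low DOX (adjusted p = 0.38) and 1.40 for P3 low DOX minus OPC lesion (adjusted p = 0.42). The difference between P3 low DOX tumors and OPC lesions passed, with an adjusted p of 0.027, when OPC lesion replicate 2 was left out and in no other alternative. Hes5, a Notch target that holds precursors back from differentiation, had 7.80, 7.25 and 7.49 in P3 high DOX tumors, 6.05, 7.78 and 4.67 in P3 low DOX tumors, and 7.21, 6.73 and 6.80 in OPC lesions. Its difference was 1.34 between the doses (adjusted p = 0.54), 0.60 for P3 high DOX minus OPC lesion and -0.75 for P3 low DOX minus OPC lesion. Id2, another inhibitor, differed by -0.25 between P3 high DOX tumors and OPC lesions.

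For the combined P3 doses against OPC lesions the furthest genes of these groups were Sox1 (-0.67) and Sox18 (0.35) among the Sox genes, Nkx6-2 (0.34) and Nkx2-1 (0.17) among the Nkx genes, and Id3 (0.82) and Hey1 (-0.26) among the helix-loop-helix genes. Myrf (1.0) and St18 (0.79) were furthest among the cofactors and Dhh (-0.97) and Mbp (0.54) among the targets. The adjusted p of these 10 genes lay between 0.97 and 0.98. Dhh, a hedgehog ligand, was highest in OPC lesion replicate 2, with 5.98, 5.21 and 5.73 in P3 high DOX tumors, 6.05, 5.46 and 5.22 in P3 low DOX tumors, and 5.33, 8.07 and 6.34 in OPC lesions.

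Finally, the genes most like each factor were sought among the 11085 other genes in the upper part of the expression range, by Pearson r over the 9 arrays. For Olig1 these were Sbf2 (r = 0.98), Cadm4 (0.97) and Gnpda2 (0.96), and for Olig2 they were Jam2 (0.98), Sbf2 (0.97) and Slc7a1 (0.97). Sbf2 was shared by both, all 5 genes were lowest in P3 low DOX replicate 3, and r over the 7 arrays stayed at 0.96 to 0.98. For Sox10 they were Gsap (0.98), Heatr6 (0.98) and Fubp3 (0.97), all lowest in P3 high DOX replicate 2, and over the 7 arrays their r was 0.88, 0.70 and 0.78. For Sox8 they were Gpr17, a receptor of committed precursors (0.98), Prkcq (0.98) and Efs (0.98), all lowest in OPC lesion replicate 1, and over the 7 arrays their r was 0.85, 0.94 and 0.97. Gpr17 had 11.02, 9.53 and 11.43 in P3 high DOX tumors, 10.69, 11.45 and 10.73 in P3 low DOX tumors, and 8.66, 11.64 and 10.74 in OPC lesions, an order close to that of Sox8. For Nkx2-2 they were Inava (0.97), Nek3 (0.97) and Iah1 (0.97), with r of 0.92, 0.96 and 0.89 over the 7 arrays. Between 47 and 127 genes had r over 0.9 with a given factor, so these names stand at the top of long lists.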

How the data were processed

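Total RNA from 9 frozen tissues was hybridized to Affymetrix MoGene-2_0-st arrays. The authors applied robust multichip averaging (RMA) and deposited log2 values. The methods then name the SVA method, and whether it is part of these values is not stated. Tool versions and a genome build for this step are not given in the sources used here. Of 41345 probe sets, 23521 name 1 gene in the array annotation, 1820 several and 16004 none here. Where a gene had several (1082 genes), the probe set of highest mean signal was kept, which gave 22180 genes. The 5 factors have 1 such probe set each. Of the genes, 21994 matched RefSeq by identifier.

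The log2 values were compared with limma 3.58.1 in R 4.3.3, in a fit over all 9 arrays and all genes with no filter, with Benjamini-Hochberg adjustment over all genes and 0.05 as the threshold. The fit was checked on simulated data. Exact two-sided permutation tests were run for single genes and pairs. The upper part of the expression range means genes with a mean at or above the median gene. Related genes are named where they had the 2 furthest differences of their list in a comparison, or passed. The 5 genes, the lists and these tests were chosen with earlier results of these data known. The alternatives were quantile normalization or centring, a filter that left out the 25% of genes with the lowest mean, and the mean of probe sets. They also included a trend or robust variance prior, only the groups compared, a replicate block, Student's t-test, and leaving out arrays. Figures were drawn with Python 3.11.15 and matplotlib 3.10.9.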

Additional observations from a re-analysis of the deposited data

How the results depend on the processing

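No lineage factor passed the threshold under any alternative, and the lowest adjusted p of a factor was 0.384. Of 380 recomputed differences of the 5 genes, 347 kept their direction and 33 changed sign, 31 of these with an array or a pair of arrays left out. With 3 arrays a group, a direction that a left-out array turns is not established. With P3 high DOX replicate 2 and OPC lesion replicate 1 both left out, the differences that changed sign were Sox10 0.35 and Sox8 0.20 for P3 high DOX minus P3 low DOX, Olig1 0.12 and Sox10 0.11 for P3 high DOX minus OPC lesion, Sox10 -0.24 and Nkx2-2 -0.18 for P3 low DOX minus OPC lesion, and Sox10 -0.068 for both doses. For both doses, centring gave Sox10 -0.014 and quantile normalization gave Nkx2-2 0.045. With each array left out in turn, the ranges for P3 high DOX minus P3 low DOX were -0.66 to 0.35 for Sox10 and -0.39 to 0.20 for Sox8. For P3 high DOX minus OPC lesion they were -0.35 to 0.36 for Olig1, -0.46 to 0.23 for Olig2, -0.56 to 0.62 for Sox10, -0.10 to 0.71 for Sox8 and -1.12 to 0.19 for Nkx2-2. For P3 low DOX minus OPC lesion they were -0.24 to 0.54 for Sox10 and -0.18 to 1.13 for Nkx2-2. For both doses they were -0.54 to 0.0084 for Olig1, -0.40 to 0.44 for Sox10, -0.018 to 0.74 for Sox8 and -0.65 to 0.66 for Nkx2-2.

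Leaving out an array called 0 to 1 genes for P3 high DOX minus P3 low DOX and 0 to 4 for P3 low DOX minus OPC lesion. These were Chrm3, Gng3, Id3 and Mir9-2 without OPC lesion replicate 2, H2-Ea without P3 low DOX replicate 1 and Ms4a14 without P3 low DOX replicate 3. Centring moved the median difference of all genes to 0.11 between the doses, -0.18 for P3 low DOX and -0.13 for both doses against OPC lesion. Same-numbered arrays had correlations of their deviations from the group mean between -0.48 and 0.27. Differently numbered arrays had -0.72 to 0.67. These values gave no sign that the numbers pair the samples, and a shared batch was not tested. With a replicate block 0 genes were called, and the Olig2 difference between the doses was 0.47 with an SE of 0.51, against 0.44 without the block.

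The within-array alternatives were chosen after seeing the data. The number of pairs that did not overlap between the doses was 6 to 8 of 10 with an array left out, against 29.1% to 39.1% of all pairs, and the difference Olig2 minus Nkx2-2 was 1.17 to 1.72. For P3 low DOX against OPC lesion it was 5 without P3 low DOX replicate 1 (32.0% of all pairs), 7 without OPC lesion replicate 2 (42.0%) and 2 to 3 otherwise (20.5% to 29.4%). For P3 high DOX against OPC lesion it was 1 to 3 (9.06% to 19.7%).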

Other observations

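A further probe set of the Nkx2-2 locus names both Nkx2-2 and its opposite-strand transcript Nkx2-2os. It was not used above, lay between 5.27 and 6.26, and had r = 0.56 with the Nkx2-2 probe set over the 9 arrays.

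Among the genes measured, those beside Sox10 were Polr2f, an RNA polymerase subunit gene, with r = 0.70 to Sox10, and Gm10863, with 0.74. Those beside Sox8 were Sstr5, with r = -0.075 to Sox8, and Cerox1, with 0.77. Those beside Nkx2-2 were Nkx2-4, with r = 0.13 to Nkx2-2 and a range of 4.64 to 4.97, and Pax1, with 0.31. The next gene beyond Nkx2-4 was Xrn2, an exoribonuclease gene, which had r = 0.89 with Nkx2-2 and lay between 8.22 and 8.94. Other genes at that distance had r of -0.53 (1700088E04Rik) and -0.14 (Pick1) to Sox10, and of -0.75 (Tekt4) and 0.79 (Lmf1) to Sox8. For Nkx2-2 the other was A530006G24Rik, with r = 0.41. Xrn2 thus had the highest r among them. These are descriptions over 9 arrays that share cell mixture. The genes were found by position, with their values seen before they were named.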
